A study of Mus musculus with 9 samples.

Results

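The genes described here encode the 3 TGF-beta ligands (Tgfb1, Tgfb2 and Tgfb3), the latent-complex protein Ltbp1, the signalling receptors Tgfbr1 and Tgfbr2, the signal transducer Smad3 and the feedback inhibitors Smad7 and Ski. They were chosen by name, as 9 of the 55401 genes in the deposited count table, and all 9 were among the 16762 genes with enough counts to be tested. RNA was sequenced from primary neonatal mouse ventricular myocytes (NMVMs), heart muscle cells isolated from 1-day-old wild-type (WT) C57BL/6J pups, with 3 libraries in each of 3 groups. Control cultures stayed in normal oxygen in complete medium, which is DMEM with serum. Hypoxia cultures were placed for 6 h in a sealed AnaeroPack chamber, in DMEM lacking both glucose and serum. Cultures of the hypoxia + rSRGN group received the same treatment with recombinant serglycin (rSRGN), a secreted proteoglycan core protein, in the medium, at a dose that the labels do not give. Oxygen, glucose and serum changed at the same time, so their effects in a comparison with control cannot be told apart. The labels do not say whether the libraries of a group came from separate cell preparations, and the p-values therefore measure the spread between these libraries, which may be technical.

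TGF-beta is secreted in a latent form, held by its own propeptide and by a latent TGF-beta binding protein that anchors it in the extracellular matrix. Once activated, the ligand binds TGFBR2, which recruits and phosphorylates TGFBR1, and TGFBR1 then phosphorylates SMAD2 and SMAD3, which enter the nucleus with SMAD4 and act on target genes. SMAD7 and SKI restrain this signal, SMAD7 at the receptor and SKI at the SMAD complex on DNA. In the heart the pathway is known above all for driving fibroblast activation and matrix production after injury.

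The promoter sequences of 3 genes are shown because these genes moved differently between the groups: Tgfb1 was higher in hypoxia, Ltbp1 was lower, and for Tgfb2 no difference from control was shown. Each is the 250 bases before a RefSeq start site (GRCm38.p6), written 5′ to 3′ on the strand of the gene, at chr7:25686752-25687001 (+) for Tgfb1, chr1:186705990-186706239 (-) for Tgfb2 and chr17:75005279-75005528 (+) for the first start site of Ltbp1. Capitals mark the letters ACGTG or GCGTG, the core of the site bound by hypoxia-inducible factors, and CAGAC, the SMAD box, on either strand.
Tgfb1: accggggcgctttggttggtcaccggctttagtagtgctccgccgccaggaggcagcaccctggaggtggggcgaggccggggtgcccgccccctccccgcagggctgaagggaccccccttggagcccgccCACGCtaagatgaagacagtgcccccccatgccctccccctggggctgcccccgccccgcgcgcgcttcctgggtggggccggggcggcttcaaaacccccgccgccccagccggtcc
Tgfb2: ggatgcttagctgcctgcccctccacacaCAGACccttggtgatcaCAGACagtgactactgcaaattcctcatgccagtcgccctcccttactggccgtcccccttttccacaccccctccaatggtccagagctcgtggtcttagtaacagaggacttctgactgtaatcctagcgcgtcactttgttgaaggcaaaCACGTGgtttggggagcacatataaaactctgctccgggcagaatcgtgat
Ltbp1: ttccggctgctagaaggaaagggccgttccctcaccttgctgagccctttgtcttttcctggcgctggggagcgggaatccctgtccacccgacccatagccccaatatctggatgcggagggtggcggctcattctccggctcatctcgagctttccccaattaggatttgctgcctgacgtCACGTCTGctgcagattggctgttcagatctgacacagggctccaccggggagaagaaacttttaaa
The Tgfb1 window held 1 GCGTG, on the opposite strand, and no ACGTG or CAGAC. In the Tgfb2 window, ACGTG lay on both strands in 1 overlapping match, and CAGAC was present at 2 places. An ACGTG and a CAGAC, both on the opposite strand, overlapped in the Ltbp1 window. The window of the other Ltbp1 start site (chr17:75178531-75178780, not shown) held no ACGTG or GCGTG, and CAGAC at 2 places. Among all 32851 mouse promoter windows of this length, 16.6% held ACGTG, 28.2% held GCGTG and 42.2% held CAGAC, so these short matches are common and describe the letters only. RefSeq entries were matched for 7 of the 9 genes (all but Tgfb3 and Smad7), with 9 windows between them. The SMAD palindrome GTCTAGAC was found in 0 of these 9 windows and in 0.167% of all windows.

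Depth ranged from 21669017 to 22781557 assigned fragments per control library, from 16583985 to 18148474 per hypoxia library and from 16640239 to 20826701 per hypoxia + rSRGN library. Levels are given as CPM, a gene's fragments as a share of its library on the usual per-1000000 scale, after scaling by the trimmed mean of M-values (TMM). Markers of the labelled cell type were present in every group, but their level differed greatly. The summed level of 12 cardiomyocyte genes was 45944 to 56439 CPM in control, 3931 to 6082 CPM in hypoxia and 7782 to 8360 CPM in hypoxia + rSRGN. The summed level of 10 fibroblast genes was 8989 to 10580 CPM in control, 17856 to 20632.5 CPM in hypoxia and 19703 to 20318 CPM in hypoxia + rSRGN. Most of this sum came from Col1a1, Col1a2 and Col3a1, with control means of 3593, 2449 and 2552 CPM. These collagens are also on the list of TGF-beta targets described below. The other fibroblast genes moved unevenly from control to hypoxia, with Pdgfra going from a mean of 75.6 to 86.1 CPM and Thy1 from 170 to 490 CPM. None of these 22 genes was at 0 in any group. In bulk RNA, fewer cells of a type and less RNA per cell cannot be told apart, and the part of these shifts in the results on the TGF-beta genes was not tested.

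Hypoxia against control asks what low oxygen and starvation did to the transcripts of the pathway. A gene was called when its adjusted p in edgeR's quasi-likelihood test (Benjamini-Hochberg adjustment) was under 0.05 and its fold change reached 1.5. By this rule 2 of the 9 genes were called, Tgfb1 and Smad7, both higher, where 51.6% of all tested genes were called, 26.4% higher and 25.1% lower. With no limit on the fold change, 7 of the 9 passed the adjusted p (70.9% of all tested genes did), of which 5 were higher and 2, Ltbp1 and Tgfbr1, were lower (36.8% and 34.1% of all tested genes). Tgfbr1 and Smad3 both lost the adjusted p without control replicate 1, control replicate 3, hypoxia replicate 1 or hypoxia replicate 3, which left 5 of the 9. The libraries of hypoxia and control did not overlap for 6 of the 9 genes, against 73% of all tested genes. The log2 fold change was above 0 for 7 of the 9 genes, against 52.2% of all tested genes, and its median was 0.20, against 0.05 over all genes tested. By calls and by overlap, the 9 genes were thus not above the background of this comparison.

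**Figure D1:**
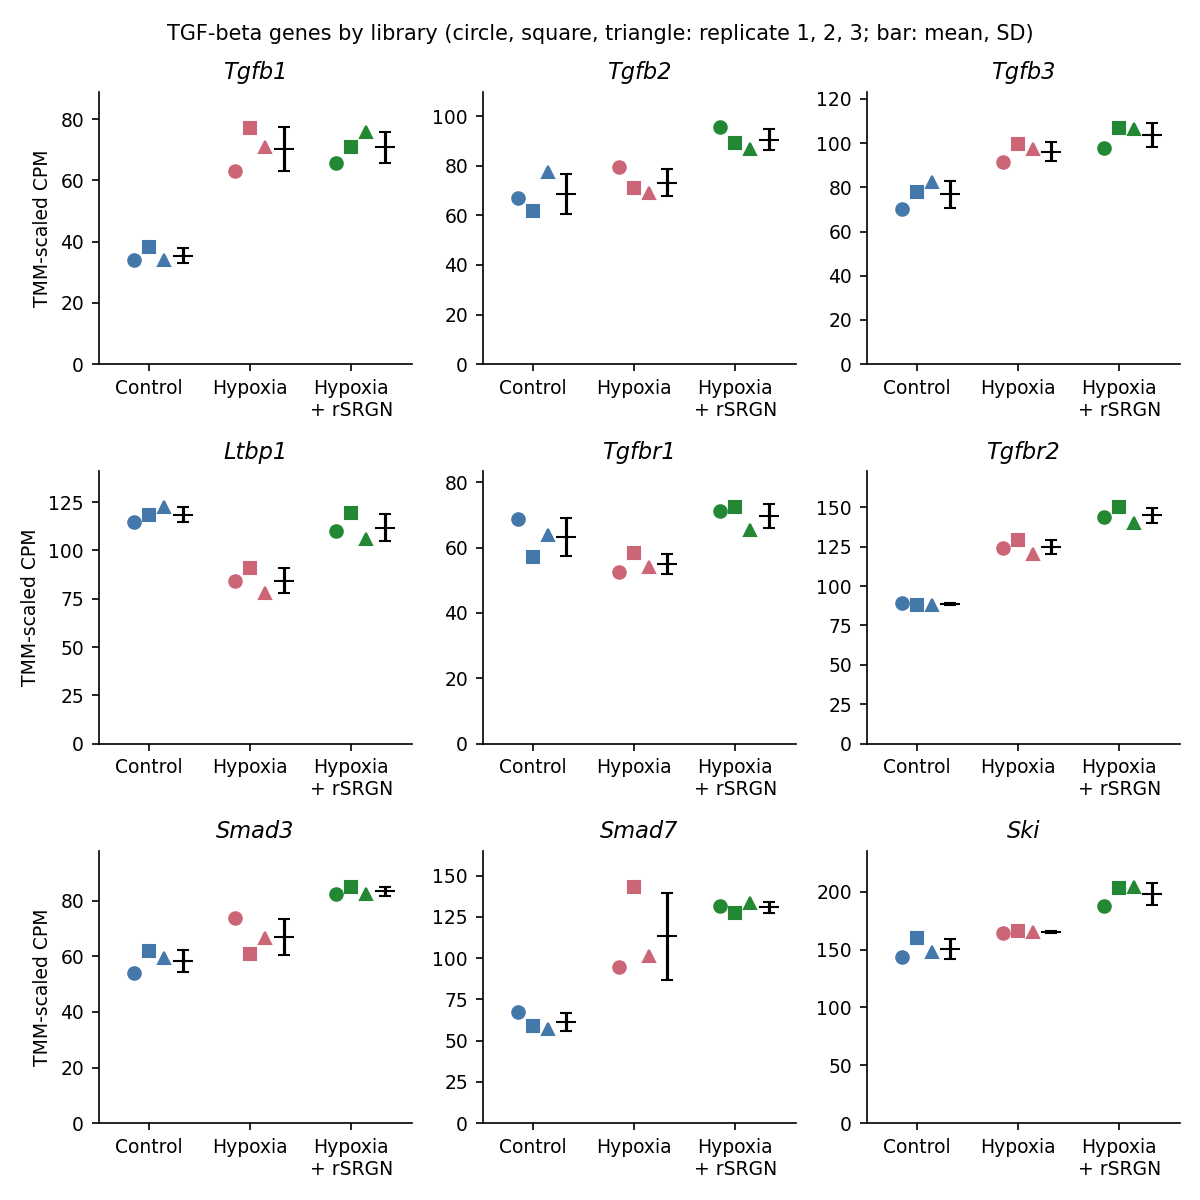
TMM-scaled CPM of each of the 9 genes (vertical axis, from 0) in the 3 libraries of each group, with 1 point per library and a bar for the group mean ± SD (n = 3). The Tgfb1 points of both hypoxic groups lie above all control points, and the Ltbp1 points of the hypoxia group lie below all others.

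Tgfb1, the ligand best known for fibrosis (chr7:25687002-25705077, GRCm38), stood at 34.1, 38.2 and 34.0 CPM in the control libraries. It reached 63.0, 77.3 and 71.0 CPM in hypoxia and 65.8, 71.0 and 75.7 CPM in hypoxia + rSRGN. All 6 hypoxic libraries lay above all 3 control libraries, and the hypoxic groups overlapped each other. The increase over control was 1.99-fold in hypoxia (log2 fold change 0.99 ± 0.089 SE, edgeR adjusted p = 1.44e-09) and 2.00-fold with rSRGN (1.00 ± 0.089, edgeR adjusted p = 1.35e-09). Between the hypoxic groups the log2 difference was 0.01, with a 95% interval from -0.17 to 0.19 (edgeR adjusted p = 0.962), and its sign turned when some single libraries were left out.

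Tgfb2, a ligand needed for heart valve and septum formation (chr1:186622792-186705989), measured 67.0, 61.6 and 77.3 CPM in control and 79.4, 71.2 and 69.0 CPM in hypoxia. These groups overlapped, and the log2 difference of 0.09 had a 95% interval from -0.08 to 0.27 (edgeR adjusted p = 0.335). With rSRGN the levels were 95.4, 89.3 and 86.9 CPM, all above every library of the other groups. Relative to hypoxia alone, the log2 fold change with rSRGN was 0.31 ± 0.086 (1.24-fold, edgeR adjusted p = 0.0174), under the 1.5-fold limit. An antisense gene, Gm29491, shares 124 exon bases with Tgfb2, 2.14% of its exon length, and had at most 7 counts in any library.

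Tgfb3, the remaining ligand isoform (chr12:86056745-86079041), measured 70.3, 77.8 and 82.6 CPM in control and 91.3, 99.8 and 97.5 CPM in hypoxia. It was 97.7, 107 and 106 CPM in hypoxia + rSRGN. The control libraries lay below all others, while the hypoxic groups overlapped. The log2 fold change over control was 0.32 ± 0.077 in hypoxia (edgeR adjusted p = 0.000758) and 0.43 ± 0.077 with rSRGN (edgeR adjusted p = 3.47e-05), both under the 1.5-fold limit. The log2 difference between the hypoxic groups was 0.11, with a 95% interval from -0.05 to 0.27 (edgeR adjusted p = 0.373). Antisense genes Gm37804 and Gm48008 overlap 4.82% and 7.60% of its exon length and had at most 4 and 2 counts.

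Per kilobase of exon, the summed ligand level was 41.6 ± 2.71 CPM per kb in control, 55.1 ± 1.98 in hypoxia and 60.3 ± 1.70 in hypoxia + rSRGN (SD, n = 3). Tgfb3 had the largest share in every library, with a mean of 54.6% in control, 51.7% in hypoxia and 50.8% with rSRGN. The share of Tgfb1 was 17% ± 1.65 in control, 25.3% ± 1.70 in hypoxia and 23.3% ± 1.07 with rSRGN, and that of Tgfb2 was 28.5%, 23% and 25.9%. The Tgfb1 shares of all 6 hypoxic libraries, 22.3% to 26.8%, lay above those of the controls, 15.2% to 18.4%. These shares are descriptions of the levels above and were not tested.

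**Figure D2:**
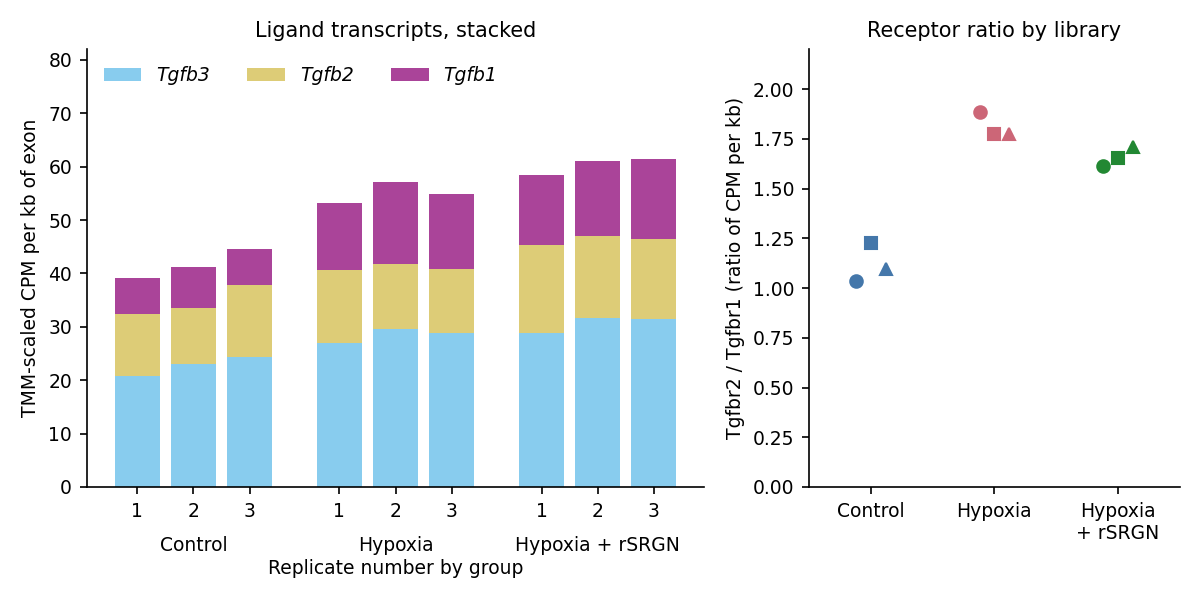
Left, TMM-scaled CPM per kb of exon of Tgfb3, Tgfb2 and Tgfb1 stacked for each of the 9 libraries, and right, the ratio of Tgfbr2 to Tgfbr1 per kb, with 1 point per library. The stacks of the hypoxic libraries are taller than those of the controls, and the ratio lies between 1.03 and 1.23 in control and between 1.62 and 1.88 in the hypoxic groups.

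Ltbp1, which binds latent TGF-beta and tethers it to the matrix (chr17:75005568-75392512), stood at 115, 118 and 122 CPM in control. It was 84.3, 91.0 and 77.8 CPM in hypoxia and 110.2, 119 and 106 CPM in hypoxia + rSRGN. The hypoxia libraries lay below all others, and the rSRGN libraries overlapped the controls. The log2 fold change was -0.49 ± 0.076 for hypoxia against control (edgeR adjusted p = 5.96e-06), 0.41 ± 0.076 for hypoxia + rSRGN against hypoxia (1.33-fold, edgeR adjusted p = 0.00111) and -0.08 ± 0.075 for hypoxia + rSRGN against control (edgeR adjusted p = 0.328, 95% interval -0.24 to 0.07). None of these reached the 1.5-fold limit. As a ratio of levels per kb, Ltbp1 was 0.267 of the summed ligands in control, 0.143 in hypoxia and 0.173 with rSRGN.

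In hypoxia against control the log2 fold changes of the receptors had opposite signs, while with rSRGN over hypoxia both were above 0. Tgfbr2, the receptor that binds the ligand first (chr9:116084293-116175360), had 89.1, 88.1 and 87.8 CPM in control, 124, 129 and 121 CPM in hypoxia, and 144, 150.1 and 140.3 CPM in hypoxia + rSRGN. The 3 groups did not overlap one another. Its log2 fold change was 0.50 ± 0.068 in hypoxia (1.41-fold, edgeR adjusted p = 1.10e-06), 0.22 ± 0.068 for rSRGN over hypoxia (edgeR adjusted p = 0.0321) and 0.71 ± 0.068 for rSRGN over control (1.64-fold, edgeR adjusted p = 4.52e-09), and the last of these was called.

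Tgfbr1, the receptor kinase that phosphorylates the SMADs (chr4:47353222-47414931), had 68.8, 57.2 and 64.0 CPM in control and 52.6, 58.3 and 54.2 CPM in hypoxia, with 1 hypoxia library inside the control range. Its log2 fold change was -0.20 ± 0.083 (edgeR adjusted p = 0.0328), and over all alternatives it ran from -0.29 to -0.14, with adjusted p up to 0.142. In hypoxia + rSRGN it had 71.1, 72.4 and 65.4 CPM, all above the hypoxia libraries (log2 fold change 0.34 ± 0.083, edgeR adjusted p = 0.00716). Against control the log2 difference was 0.14, with a 95% interval from -0.03 to 0.31 (edgeR adjusted p = 0.139). Over all alternatives this difference ran from 0.06 to 0.19, with adjusted p from 0.0481 to 0.581. The ratio of Tgfbr2 to Tgfbr1 per kb was 1.12 ± 0.0996 in control, 1.81 ± 0.0626 in hypoxia and 1.66 ± 0.0479 with rSRGN (SD, n = 3), with no overlap between any of the groups.

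Smad3, which carries the signal to the nucleus (chr9:63646767-63757994), measured 54.0, 61.7 and 59.3 CPM in control, 73.6, 60.7 and 66.5 CPM in hypoxia and 82.3, 85.0 and 82.4 CPM in hypoxia + rSRGN. The control and hypoxia libraries overlapped, and the rSRGN libraries lay above all others. Hypoxia against control gave a log2 fold change of 0.20 ± 0.082 (edgeR adjusted p = 0.0332), which was 0.31 ± 0.081 for rSRGN over hypoxia (edgeR adjusted p = 0.0107) and 0.51 ± 0.081 for rSRGN over control (1.43-fold, edgeR adjusted p = 7.79e-06). For hypoxia against control it ran from 0.13 to 0.27 over all alternatives, with adjusted p up to 0.215, and it missed the threshold by DESeq2 (adjusted p = 0.0704).

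Smad7, an inhibitory SMAD on chromosome 18 that is itself switched on by TGF-beta signalling, measured 67.3, 58.9 and 57.1 CPM in control. It had 94.9, 143 and 101 CPM in hypoxia, the largest SD among the 9 genes there (26.3 CPM), and 132, 127 and 134 CPM in hypoxia + rSRGN. Both hypoxic groups lay above control, and hypoxia replicate 2 exceeded all rSRGN libraries. The log2 fold change over control was 0.89 ± 0.11 in hypoxia (1.85-fold, edgeR adjusted p = 2.77e-07) and 1.10 ± 0.11 with rSRGN (2.14-fold, edgeR adjusted p = 1.13e-08). Between the hypoxic groups it was 0.21 ± 0.11 (edgeR adjusted p = 0.208). Leaving out hypoxia replicate 2 gave 0.42 (edgeR adjusted p = 0.000418) for that difference and 0.68 for hypoxia against control.

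Ski, a corepressor of SMAD target genes (chr4:155154075-155222592), had 143, 159.7 and 148 CPM in control, 164, 166 and 165 CPM in hypoxia and 187, 203 and 204 CPM in hypoxia + rSRGN. The groups did not overlap, though hypoxia against control missed the threshold (log2 fold change 0.13 ± 0.070, edgeR adjusted p = 0.0923, 95% interval -0.01 to 0.28). Over all alternatives this value ran from 0.08 to 0.20, with adjusted p from 0.0111 to 0.468, so the miss depended on the processing. The log2 fold change was 0.27 ± 0.070 for rSRGN over hypoxia (edgeR adjusted p = 0.0119) and 0.40 ± 0.070 for rSRGN over control (edgeR adjusted p = 2.83e-05), both under the 1.5-fold limit.

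Hypoxia + rSRGN against hypoxia asks what the added protein changed in the hypoxic cultures, and shares the hypoxia libraries with the comparison above. None of the 9 genes was called (0 of 9 by edgeR and 0 by DESeq2), where 3.13% of all tested genes were, 2.27% higher and 0.859% lower. At any fold change 6 of the 9, Tgfb2, Ltbp1, Tgfbr1, Tgfbr2, Smad3 and Ski, passed the edgeR adjusted p, all of them higher with rSRGN, where 16.6% of all tested genes passed, 10.5% higher and 6.11% lower. The same 6 had an unadjusted p under 0.05, and for these 6 the libraries of the hypoxic groups did not overlap (32% of all tested genes). All 9 log2 fold changes were above 0, as were 46.2% of those of all tested genes, and the median was 0.27 against -0.03 over all genes tested. The count of 6 depended on single libraries: without hypoxia + rSRGN replicate 2 only Ltbp1 passed, with 7.8% of all genes. The log2 fold changes without that library were 0.32 for Tgfb2, 0.36 for Ltbp1, 0.31 for Tgfbr1, 0.19 for Tgfbr2, 0.30 for Smad3 and 0.25 for Ski, close to their values over all libraries. Of the 9 genes, 4 passed without hypoxia replicate 3 or without hypoxia + rSRGN replicate 1, and 7 without hypoxia replicate 2. The cardiomyocyte list also moved in this comparison, with 11 of its 12 genes called higher, while 0 of the 10 fibroblast genes were called higher and 1 lower. The part of this shift in the 6 differences was not tested.

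**Figure D3:**
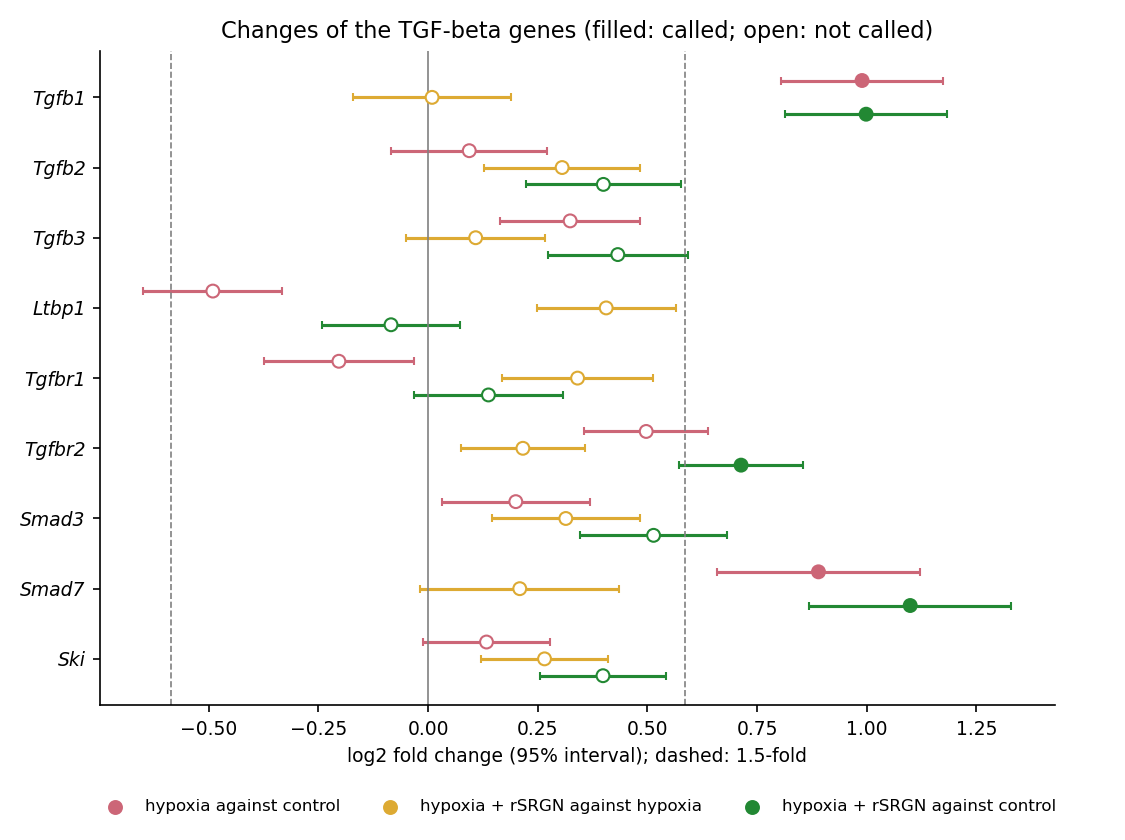
Log2 fold change of each of the 9 genes (points) with its 95% interval (bars) in the 3 comparisons, filled where called, with the 1.5-fold limits drawn as lines. In hypoxia + rSRGN against hypoxia the values run from 0.01 for Tgfb1 to 0.41 for Ltbp1, all within the limits.

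Hypoxia + rSRGN against control shares libraries with both comparisons above. Of the 9 genes, 3 were called, Tgfb1, Tgfbr2 and Smad7, all higher, where 48.8% of all tested genes were called, 24.1% higher and 24.7% lower. The median log2 fold change was 0.43, against 0.01 over all genes tested. At any fold change 7 of the 9 passed the edgeR adjusted p (68.6% of all tested genes did, 34.4% higher and 34.3% lower), all higher, and Ltbp1 and Tgfbr1 did not pass. The libraries did not overlap for the same 7 genes (73.3% of all tested genes), and 8 of the 9 log2 fold changes were above 0 (50.3% of all tested genes).

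In the order of the levels per kb, Ski, Tgfb3 and Smad7 held the first 3 places in every group, while Tgfb1, Ltbp1, Tgfbr2 and Tgfb2 changed places between control and hypoxia. In control Ski stood highest at 27.0 CPM per kb, followed by Tgfb3 at 22.7, then Smad7, Tgfb2, Ltbp1, Tgfbr2, Smad3 and Tgfbr1 from 13.5 down to 9.69, each overlapping its neighbour, and Tgfb1 lowest at 7.03. In hypoxia Ski, Tgfb3 and Smad7 overlapped in sequence from 29.7 to 25 CPM per kb, Tgfbr2, Tgfb1, Tgfb2 and Smad3 followed from 15.2 to 12.1, and Tgfbr1 at 8.42 and Ltbp1 at 7.89 came last. With rSRGN Ski was highest at 35.7, followed by Tgfb3 at 30.7 and Smad7 at 28.9, and Tgfbr1 and Ltbp1 again came last, at 10.7 and 10.5. Tgfb1 thus stood below Tgfb2 in every control library, above it in 2 of the 3 hypoxia libraries and below it in 2 of the 3 hypoxia + rSRGN libraries.

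The pathway around these genes was described with 101 further genes in 6 lists, of which 98 were tested. In hypoxia against control 47 of them were called higher, 19 lower and 32 were not called, with a median log2 fold change of 0.50 against 0.05 over all genes tested. The 19 include Nrros and Bmp5, which are described below and were tested only because of their control libraries. Of all tested genes 26.4% were called higher and 25.1% lower in that comparison, and the count of each list below is to be read against these shares. In hypoxia + rSRGN against hypoxia 7 were called higher and 1 lower, with a median of 0.09 against -0.03, where 2.27% of all tested genes were called higher and 0.859% lower. The 7 include Acvr1c, which is described below and was tested only because of its rSRGN libraries. These 8 calls depended on single libraries: there were 3 without hypoxia replicate 3, 5 without hypoxia + rSRGN replicate 2, 13 without hypoxia + rSRGN replicate 3 and 14 without hypoxia replicate 2. Thbs1, Bmpr2 and Bmp10 were called with each of the 9 libraries left out in turn. Without hypoxia replicate 3 the calls of Itgav, Skil, Inhba, Id1 and Acvr1c were lost, without hypoxia + rSRGN replicate 2 those of Itgav, Inhba and Acvr1c, and without hypoxia replicate 1 those of Itgav and Skil.

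**Figure D4:**
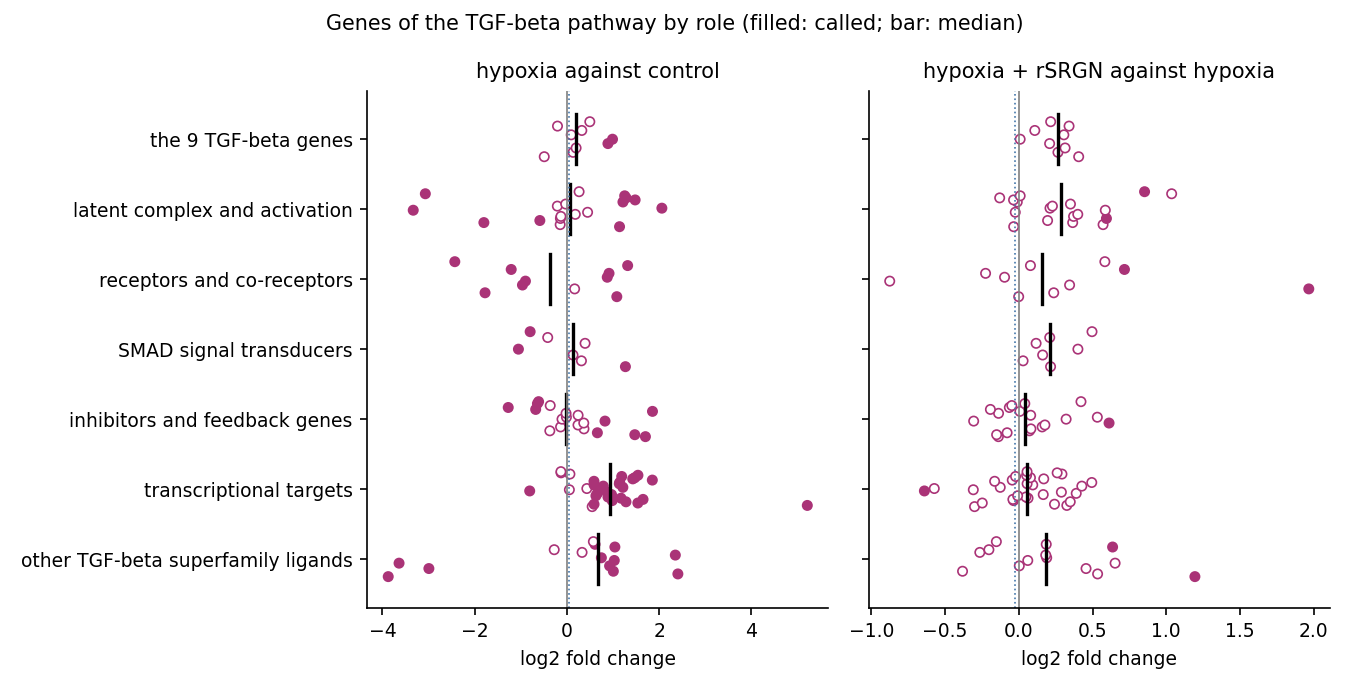
Log2 fold change (horizontal axis, with its own range in each panel) of the 9 TGF-beta genes and the 98 other tested pathway genes by list, with 1 point per gene, filled where called, and a bar for the list's median, for hypoxia against control and for hypoxia + rSRGN against hypoxia; the dotted line is the median of all genes tested. The list of transcriptional targets has the highest median in hypoxia against control, 0.93.

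Genes of the latent complex and of its activation were split. In hypoxia 6 of 18 were called higher and 4 lower, near the shares of all tested genes (median log2 fold change 0.08). The 4 include Nrros, named after its values were seen, with 44, 47 and 35 counts in control, 7, 1 and 4 in hypoxia and 12, 4 and 10 with rSRGN. Nrros passed the filter on low counts only through the control libraries, where it is high, so its call supports nothing. Of the 18 genes, Itgb6, a subunit of an integrin that activates latent TGF-beta, fell by 3.33 on the log2 scale, while Itgb8, from another activating integrin, rose by 2.06. Fbn2, a fibrillin of the matrix, fell by 1.80, and Ltbp4, a relative of Ltbp1, rose by 1.48. With rSRGN 2 of 18 were called, both higher than in hypoxia alone. Thbs1 (thrombospondin 1, an activator of latent TGF-beta) went from 2119, 2741 and 1900 CPM in hypoxia to 3963, 4401 and 3845 CPM with rSRGN (log2 fold change 0.85, edgeR adjusted p = 3.85e-05). Itgav, the integrin chain that pairs with Itgb6 and Itgb8, went from 201, 232 and 186 CPM to 309, 339 and 286 CPM (0.59, edgeR adjusted p = 0.00012). For both genes all rSRGN libraries lay above all hypoxia libraries.

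Of 10 further receptors and co-receptors, 4 were called higher and 5 lower in hypoxia (median -0.36). The co-receptor Tgfbr3 (betaglycan), which presents ligand to Tgfbr2, fell from 61.6, 67.7 and 61.0 CPM to 11.5, 12.4 and 11.5 CPM (log2 fold change -2.43). The co-receptor Eng (endoglin) rose from 174, 181 and 169 CPM to 427, 403 and 476 CPM (1.32). The activin receptor Acvr1b fell by 1.77 and the BMP receptor Bmpr2 by 1.21 on the log2 scale. With rSRGN 2 of the 10 were called, both higher than in hypoxia alone, though 1 of them, Acvr1c, was tested only because of its rSRGN libraries. Bmpr2 stood at 102, 96.7 and 85.5 CPM against 57.6, 65.3 and 50.0 CPM (log2 fold change 0.72). The other, the nodal and activin receptor Acvr1c, was named after its values were seen and had 13, 8 and 6 counts in control, 17, 7 and 1 in hypoxia and 32, 43 and 29 with rSRGN. It passed the filter on low counts only through the rSRGN libraries, where it is high, so its call supports nothing and Bmpr2 is the 1 receptor call that does not depend on the filter. Of the 7 other SMAD transducers, Smad1 rose by 1.27, Smad5 fell by 1.05 and Zfyve9, which anchors SMADs at the receptor, fell by 0.80, and the other 4 were not called. None of the 7 was called with rSRGN (0 by edgeR).

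Of 19 further inhibitors and feedback genes, 5 were called higher and 4 lower in hypoxia, near the shares of all tested genes (median -0.01). The corepressor Tgif1 rose from 32.2, 31.3 and 28.3 CPM to 101, 128 and 103 CPM (log2 fold change 1.86). The ligand-binding proteoglycans Bgn and Dcn rose by 1.70 and 1.47, while the deubiquitinase Usp11 fell by 1.27. With rSRGN 1 of the 19 was called. Skil, the close relative of Ski, was 67.0, 101 and 65.4 CPM in hypoxia and 123, 117 and 117 CPM with rSRGN (log2 fold change 0.61, edgeR adjusted p = 0.00101). Hypoxia replicate 2 was the highest of its group for Skil, as it was for Smad7, and the rSRGN libraries did not overlap it.

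Of 30 transcriptional targets of TGF-beta, 23 were called higher and 1 lower in hypoxia, with a median log2 fold change of 0.93. Without the 6 that are in the marker lists, 18 of 24 were called higher and 1 lower (median 0.92), a count that does not set aside other genes of the same cell types. In the same comparison 7 of 10 fibroblast markers (median 0.90) and 5 of 6 epicardial and mesothelial markers (median 2.06) were called higher, and their part in the targets' rise was not tested. Atf3, a stress-responsive transcription factor with inducers beyond TGF-beta, rose from 8.36, 11.2 and 11.1 CPM to 343, 430 and 365 CPM (log2 fold change 5.21). Snai2 (a regulator of mesenchymal change), Cdkn2b (a cell cycle inhibitor) and Timp1 (a protease inhibitor) rose by 1.85, 1.65 and 1.54. The 1 lower gene was Id1, better known as a BMP target, at 33.5, 32.6 and 30.1 CPM in control and 18, 13.4 and 23.6 CPM in hypoxia (-0.81). Id1 was also the 1 target called with rSRGN, where it was lower still at 11.2, 11.9 and 12.3 CPM (-0.64, edgeR adjusted p = 0.00471).

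Of 17 other ligands of the superfamily 14 were tested, and 8 of these were called higher and 3 lower in hypoxia (median 0.68). Bmp10, made by heart muscle cells, fell from 42.9, 46.3 and 51.8 CPM to 4.67, 2.95 and 1.91 CPM (log2 fold change -3.87), and Bmp7 fell by 3.64. The remaining lower gene, Bmp5, was named after its values were seen. It had 49, 51 and 39 counts in control, 7, 5 and 2 in hypoxia and 1, 18 and 2 with rSRGN. Bmp5 passed the filter on low counts only through the control libraries, where it is high, so its call supports nothing. Bmp2 and the stress-induced Gdf15 rose by 2.41 and 2.35. With rSRGN 2 of the 14 were called higher than in hypoxia alone. Bmp10 had 7.92, 7.61 and 6.50 CPM (log2 fold change 1.19), and Inhba, which encodes the subunit of activin A, had 177, 185 and 149 CPM against 105, 132 and 91.7 CPM (0.64).

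The genes whose log2 levels ran most like each of the 9 over the 9 libraries were sought among 14256 genes. They were Shc1 and Grn for Tgfb1 (Pearson's r = 0.996 and 0.995), St8sia2 and Tiam1 for Tgfb2 (0.946 and 0.944), Tspan9 and Ctnnd2 for Tgfb3 (0.981 and 0.980), and Tacc1 and Socs7 for Ltbp1 (0.991 and 0.987). For the receptors they were Kbtbd2 and Gmfb for Tgfbr1 (0.965 and 0.963) and Cnksr3 and Fam107b for Tgfbr2 (0.998 and 0.998). For the remaining genes they were Elmsan1 and Unkl for Smad3 (0.982 and 0.982), Glud1 and Zfp36 for Smad7 (0.994 and 0.993), and Dlg5 and Zfp36l2 for Ski (0.976 and 0.972). The points of each correlation come from 3 groups of libraries, so differences between group means enter it. How far the genes ran together within a group was not tested.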

How the data were processed

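The authors deposited fragment counts per gene as whole numbers, with no normalization. Per the file header they were made with featureCounts 2.0.1 from read pairs over exons of GENCODE release 25 (GRCm38), with no strand setting, so reads from overlapping opposite-strand genes cannot be separated. The submitters' processing notes name HISAT2 and mm10. All 9 count columns were used and 0 were left out. Groups came from the sample labels.

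In R 4.3.3, edgeR 4.0.16 was used with filterByExpr, TMM scaling and 1 quasi-likelihood fit over the 9 libraries, and Benjamini-Hochberg adjustment covered all 16762 genes. Calls needed an adjusted p under 0.05 and at least 1.5-fold. Standard errors are of the log2 fold change, with 95% intervals from the fit. The fits were tested on simulated data. Alternatives were DESeq2 1.42.0, other scalings and filters, a replicate block and each library left out. Pathway genes named for hypoxia against control were, per list, the 4 largest called changes with a mean of at least 1 CPM, and Id1 was named as the only lower target. With rSRGN, up to 2 per list were named by the same rule. Groups also had to be without overlap. The genes and lists were chosen with earlier results of these data known. Promoter windows came from RefSeq. The study's paper describes other material, and no value of it was used.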

Additional observations from a re-analysis of the deposited data

How the results depend on the processing

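With 17 alternatives per result, the counts of called genes among the 9 were 2, 0 and 3 (hypoxia against control, hypoxia + rSRGN against hypoxia, hypoxia + rSRGN against control) under DESeq2, each other scaling and filter and each library left out. With no limit on the fold change they were 7, 6 and 7. In hypoxia + rSRGN against hypoxia the calls over all genes went from 525 to 2790 with no fold limit and ranged from 321 (without hypoxia replicate 3) to 699 (without hypoxia replicate 2) with single libraries left out. The calls among the other pathway genes went from 8 to 33 with no fold limit, and ranged from 3 to 14 with the same libraries left out (5 without hypoxia + rSRGN replicate 2 and 13 without replicate 3). The 6 of 9 past the adjusted p at any fold ranged from 1 to 7 with single libraries left out, and the 7 of 9 in hypoxia against control from 5 to 7. With the replicate number as a block the calls among the 9 stayed at 2, 0 and 3. Libraries of the same number did not visibly deviate together (correlations of deviations from -0.0697 to 0.0627). This cannot show whether they share a cell preparation, which the labels do not say. The Tgfb1 difference between the hypoxic groups, 0.01, was -0.01 under scaling by library size alone, -0.06 without hypoxia replicate 1 and -0.03 without hypoxia + rSRGN replicate 3.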

Other observations

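Srgn, the mouse gene of the added protein, had 5, 14 and 10 counts in control, 6, 6 and 6 in hypoxia and 3, 19 and 6 in hypoxia + rSRGN. It was not kept by the filter on low counts and was not tested. The added protein itself is not measured by RNA-seq. Macrophage genes, 10 in number, summed to 231 to 248 CPM in control, 25.4 to 28.8 CPM in hypoxia and 29.8 to 35.6 CPM with rSRGN. Epicardial and mesothelial genes, 6 in number, summed to 239 to 275, 854 to 933 and 811 to 889 CPM.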
